A study of Mus musculus with 15 samples.

Results

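The genes described here were 41 mouse genes of the extracellular matrix, the meshwork of proteins that cells lay down around themselves. They were taken as a list of symbols, by function and not by a threshold on any value, and cover collagen chains, laminin chains, nidogens and perlecan, elastic fibre and crosslinking genes, small leucine-rich proteoglycans, and fibronectin with matricellular proteins. Earlier results of these data were known when this list and the further lists below were chosen. Counts set beside the shares of all genes therefore describe the lists and do not test them. All 41 had a row among the 46078 genes of the first count table, and 31 had a row among the 13063 named genes of the second. After a filter on low counts, 33 of the 41 were tested in the first table and the 31 with a row were tested in the second. The 10 without a row in the second were Col6a3, Col11a1, Col15a1, Col16a1, Lama4, Fbln5, Lum, Fmod, Postn and Eln, of which Col16a1 and Fbln5 passed the filter in the first.

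Satellite cells are the stem cells of skeletal muscle and lie between the muscle fibre and a sheet of matrix called the basal lamina. Laminins and collagen IV form the networks of that sheet, and nidogens and perlecan tie the networks together. Fibrillar collagens such as types I, III and V build the fibres of the interstitial matrix, to which small proteoglycans such as biglycan and decorin bind. Adenosine is a nucleoside sensed by receptors on the cell surface, and adenosine monophosphate (AMP) is adenosine carrying a phosphate group, which enzymes on the cell surface can remove.

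The study compared cultured satellite cells from mouse hindlimb muscle, kept in F10 medium with horse serum, after 24 hours with adenosine, AMP or the solvent DMSO. In batch 1, 3 libraries came from DMSO and 3 from 0.05 mM adenosine, with no strain given in the labels. Batch 2, from C57BL/6J mice, held 3 libraries each with DMSO, 0.1 mM adenosine and 0.25 mM AMP. RNA was made into full-length cDNA by the Smart-seq2 protocol, cut with the Tn5 transposase and sequenced. Adenosine and AMP were therefore compared at unequal doses, and batch 1 and batch 2 differed in adenosine dose as well as in batch. Whether libraries of 1 group stem from different mice or dishes is not stated in the labels. Each p-value therefore measures variation among these libraries, part or all of which may be technical.

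Levels are given in CPM, a gene's count relative to the total of its library, scaled by the trimmed mean of M-values (TMM). Fold changes come from the quasi-likelihood test of edgeR, with Benjamini-Hochberg adjustment over all genes tested, and a gene is said to have risen or fallen where the adjusted p was under 0.05. Batch 1 libraries held between 14683346 and 20799588 counts, and those of batch 2 between 11107450 and 14201933. Each of the 10 satellite cell and myoblast markers had counts in all 15 libraries, with Pax7 at 44.1 to 80.2 CPM. These markers moved with the treatments too: 6 of the 10 fell and 2 rose in batch 1 (all genes, 19.7% and 19.8%). With 0.1 mM adenosine 7 fell and 2 rose (34.6% and 35%), and with AMP 6 fell and 2 rose (31.9% and 33.8%). The summed level of the 10 markers was 7108 to 7526 CPM with DMSO and 4020.5 to 4951 with adenosine in batch 1, and 6087 to 6901 with DMSO, 3040 to 3457 with adenosine and 3166 to 4104 with AMP in batch 2. Myod1, which drives the muscle fate, was at 2807 to 3140 CPM with DMSO and 879 to 1315 with adenosine in batch 1, and at 1493 to 1894, 627 to 684 and 703 to 917 CPM in the DMSO, adenosine and AMP libraries of batch 2. Of the 15 listed markers of fibroblasts and fibro-adipogenic progenitors, Pdgfra, Ly6a, Pi16, Mfap5, Clec3b and Lum were each at or below 1.21 CPM in the batch 1 libraries. Pi16 was at 0 in 4 of the 6. Has1 was higher in the treated libraries, at 0.460 to 2.46 CPM with DMSO and 7.93 to 13.2 with adenosine in batch 1. In batch 2 Has1 was at 0.202 to 0.552 CPM with DMSO, 3.45 to 4.135 with adenosine and 2.13 to 3.81 with AMP. Other markers of that list were not low: Dpt was at 12.9 to 20.7 CPM with DMSO and 8.54 to 11.3 with adenosine in batch 1, and Dpep1 at 24.9 to 50.1 and 2.20 to 7.66 CPM. The summed level of the 14 matched fibroblast and fibro-adipogenic markers was 407 to 503 CPM with DMSO and 305 to 394 CPM with adenosine in batch 1, most of it Cd34 and Gsn. In batch 2 the 6 such markers with a row summed to 383 to 454 CPM with DMSO, 279 to 285 with adenosine and 360 to 433 with AMP. Of 7 tested in batch 1, 1 rose and 2 fell (all genes, 19.8% and 19.7%). Of 6 tested in batch 2, 2 rose and 3 fell with adenosine (35% and 34.6%), and 2 rose and 1 fell with AMP (33.8% and 31.9%). Of 6 smooth muscle and pericyte markers tested in batch 1, 4 fell and 2 rose (all genes, 19.7% and 19.8%). Of 4 tested in batch 2, 3 fell and 1 rose with 0.1 mM adenosine (34.6% and 35%). With AMP 3 fell and none rose (31.9% and 33.8%). The markers of this list summed to 1045 to 1273 CPM with DMSO and 258 to 367 with adenosine in batch 1, and to 1510.5 to 1858 with DMSO, 344 to 429 with adenosine and 339 to 508 with AMP in batch 2. Most of that sum was Des, which muscle precursors also express, while Notch3 was at 47.6 to 81.5 and 7.38 to 13.8 CPM in the DMSO and adenosine libraries of batch 1, and Myh11 and Rgs5 were at or below 0.842 CPM there. The part of these marker lists in the matrix results was not tested. Because these were bulk libraries, fewer cells of a type and less RNA per cell cannot be told apart.

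RefSeq start sites (build GRCm38.p6) were matched for 29 of the 41 genes, in 34 windows. The 250 bases before the start are shown for 4 genes that fell against DMSO in every comparison, Col3a1, Bgn, Tnc and Lama2, and for Lama5, a laminin chain that rose in batch 2, so that promoters of genes moving in opposite directions can be read side by side. The windows were chr1:45311288-45311537 (plus strand), chrX:73483351-73483600 (plus), chr4:64047016-64047265 (minus), chr10:27616943-27617192 (minus) and chr2:180225860-180226109 (minus), and none of their bases lay in an annotated exon. Capitals mark matches, on either strand, to TATAAA (the TATA box), GGGCGG (the GC box bound by SP1), CCAAT (bound by NF-Y), TGANTCA (the AP-1 site) or TGACG (the core of the CREB/ATF site). Each is written 5′ to 3′ on the strand of its gene, ending at the base before the start site.
Col3a1: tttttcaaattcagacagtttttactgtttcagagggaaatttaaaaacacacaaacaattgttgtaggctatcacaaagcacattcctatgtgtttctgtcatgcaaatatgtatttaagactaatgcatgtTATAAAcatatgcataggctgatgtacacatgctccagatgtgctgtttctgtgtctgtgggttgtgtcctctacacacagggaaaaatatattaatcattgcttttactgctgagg
Bgn: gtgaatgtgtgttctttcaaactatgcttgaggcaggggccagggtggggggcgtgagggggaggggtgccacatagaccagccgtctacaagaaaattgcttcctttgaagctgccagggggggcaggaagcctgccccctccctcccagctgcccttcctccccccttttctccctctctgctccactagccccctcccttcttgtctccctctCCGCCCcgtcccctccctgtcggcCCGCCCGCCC
Tnc: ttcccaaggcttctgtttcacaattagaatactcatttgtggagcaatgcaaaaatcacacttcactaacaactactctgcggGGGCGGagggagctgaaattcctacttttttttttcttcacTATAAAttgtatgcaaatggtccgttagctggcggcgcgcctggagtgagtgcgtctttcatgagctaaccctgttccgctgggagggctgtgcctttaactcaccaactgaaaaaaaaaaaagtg
Lama2: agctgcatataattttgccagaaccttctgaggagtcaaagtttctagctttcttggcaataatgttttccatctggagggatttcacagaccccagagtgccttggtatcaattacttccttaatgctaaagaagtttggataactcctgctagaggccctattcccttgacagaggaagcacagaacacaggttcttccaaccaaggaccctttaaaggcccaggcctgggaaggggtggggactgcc
Lama5: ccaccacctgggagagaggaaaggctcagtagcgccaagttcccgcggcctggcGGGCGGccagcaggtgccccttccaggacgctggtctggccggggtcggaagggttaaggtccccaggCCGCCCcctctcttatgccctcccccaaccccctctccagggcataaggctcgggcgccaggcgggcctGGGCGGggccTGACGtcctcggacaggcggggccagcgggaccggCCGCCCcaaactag

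The Lama5 window held 4 GC boxes and 1 TGACG match, which began 49 bases before the start site. Bgn held 3 GC boxes within 34 bases of its start, of which the pair nearest to the start overlap each other. Tnc held 1 GC box and 1 TATAAA match, Col3a1 held a TATAAA match 117 bases upstream, and the Lama2 window held none of the 5 motifs. The RefSeq start of Lama2 lies inside the gene model of the count table. Over the 34 windows of these genes, GGGCGG was found in 20, CCAAT in 11, TATAAA in 5, TGACG in 3 and TGANTCA in 1. Of all 32851 windows of the same length in the RefSeq table, 32.7% held GGGCGG, 33.8% CCAAT, 12.4% TATAAA, 17.8% TGACG and 6.75% TGANTCA. These matches describe the letters of the windows and are not binding data.

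In the DMSO libraries the genes ranged from abundant transcripts to a few reads. On the FPKM scale of the authors, which divides by gene length and so allows genes to be compared, the highest in batch 1 DMSO was Sparc at 213 ± 35.8 FPKM (SD, n = 3), followed by Col5a2 at 86.6 ± 14.7, Loxl1 at 60.01 ± 10.9, Col4a1 at 58.5 ± 5.58, Bgn at 45.1 ± 17.6 and Col3a1 at 44.6 ± 13.05. The spreads of Loxl1 and Col4a1, and those of Bgn and Col3a1, overlapped, so the order within these pairs is not resolved. Collagen I, the main collagen of fibroblasts, was low, with Col1a1 at 1.65 ± 1.25 FPKM and Col1a2 at 2.58 ± 1.17 FPKM. The FPKM of batch 2 were made in a separate table and ranked Sparc first as well, at 188 ± 18.7, then Hspg2 at 56.2 ± 0.925, Col4a1 at 55.6 ± 6.15, Col5a2 at 52.3 ± 3.11 and Tnc at 50.3 ± 2.41. Together the 41 genes took 0.405% ± 0.0698 of all counts with DMSO in batch 1 and 0.244% ± 0.0402 with adenosine (SD, n = 3 each). In batch 2 the share was 0.371% ± 0.0217 with DMSO, 0.217% ± 0.0295 with 0.1 mM adenosine and 0.303% ± 0.0551 with AMP. The treated and DMSO shares did not overlap for adenosine in either batch, whereas the highest AMP library, at 0.366%, lay above the lowest DMSO library, at 0.352%.

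More of the tested matrix genes fell than rose in each comparison with DMSO. Adenosine at 0.05 mM lowered 15 of the 33 tested genes and raised 2, and 16 did not pass. Of all 13842 genes tested there, 19.7% were called lower and 19.8% higher. At 0.1 mM in batch 2, 19 of the 31 fell, 5 rose and 7 did not pass, against 34.6% called lower and 35% called higher over all 13063 genes. After AMP, 13 of the 31 fell, 7 rose and 11 did not pass, where 31.9% of all genes were called lower and 33.8% higher. Scaled to library totals without TMM factors, the AMP counts were 10 lower and 9 higher, with 16 and 9 at 0.1 mM adenosine, and 12 and 4 in batch 1. The 3 comparisons of batch 2 were fitted together, and adenosine and AMP share their DMSO libraries.

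The median log2 fold change of the tested genes was -0.31 in batch 1, -0.68 with 0.1 mM adenosine and -0.26 with AMP, where the medians over all genes were 0.03, 0.01 and 0.01. Scaled to library totals without TMM factors, the AMP median was 0.00587, and that scaling put the median of all genes at 0.28. The TMM factors were 0.864 to 0.947 in the DMSO libraries and 1.01 to 1.11 in the treated ones. The treated and DMSO libraries did not overlap for 18 of 33 genes in batch 1 (51.4% of all genes), for 24 of 31 with 0.1 mM adenosine (73.6%) and for 19 of 31 with AMP (70.5%). The 11 genes Col1a2, Col3a1, Col5a2, Col6a2, Lama2, Lamb1, Lamb2, Hspg2, Fbn1, Bgn and Tnc were lower in each of the 3 comparisons with DMSO, and Col12a1 was higher in each. Of the 12608 genes tested in both batches, 17.1% were lower in each and 16.6% higher in each, and the 3 calls are not independent because the batch 2 comparisons share their DMSO libraries. Col1a1, Col18a1, Lama5 and Dcn rose with 0.1 mM adenosine and with AMP but were not called in batch 1.

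**Figure D1:**
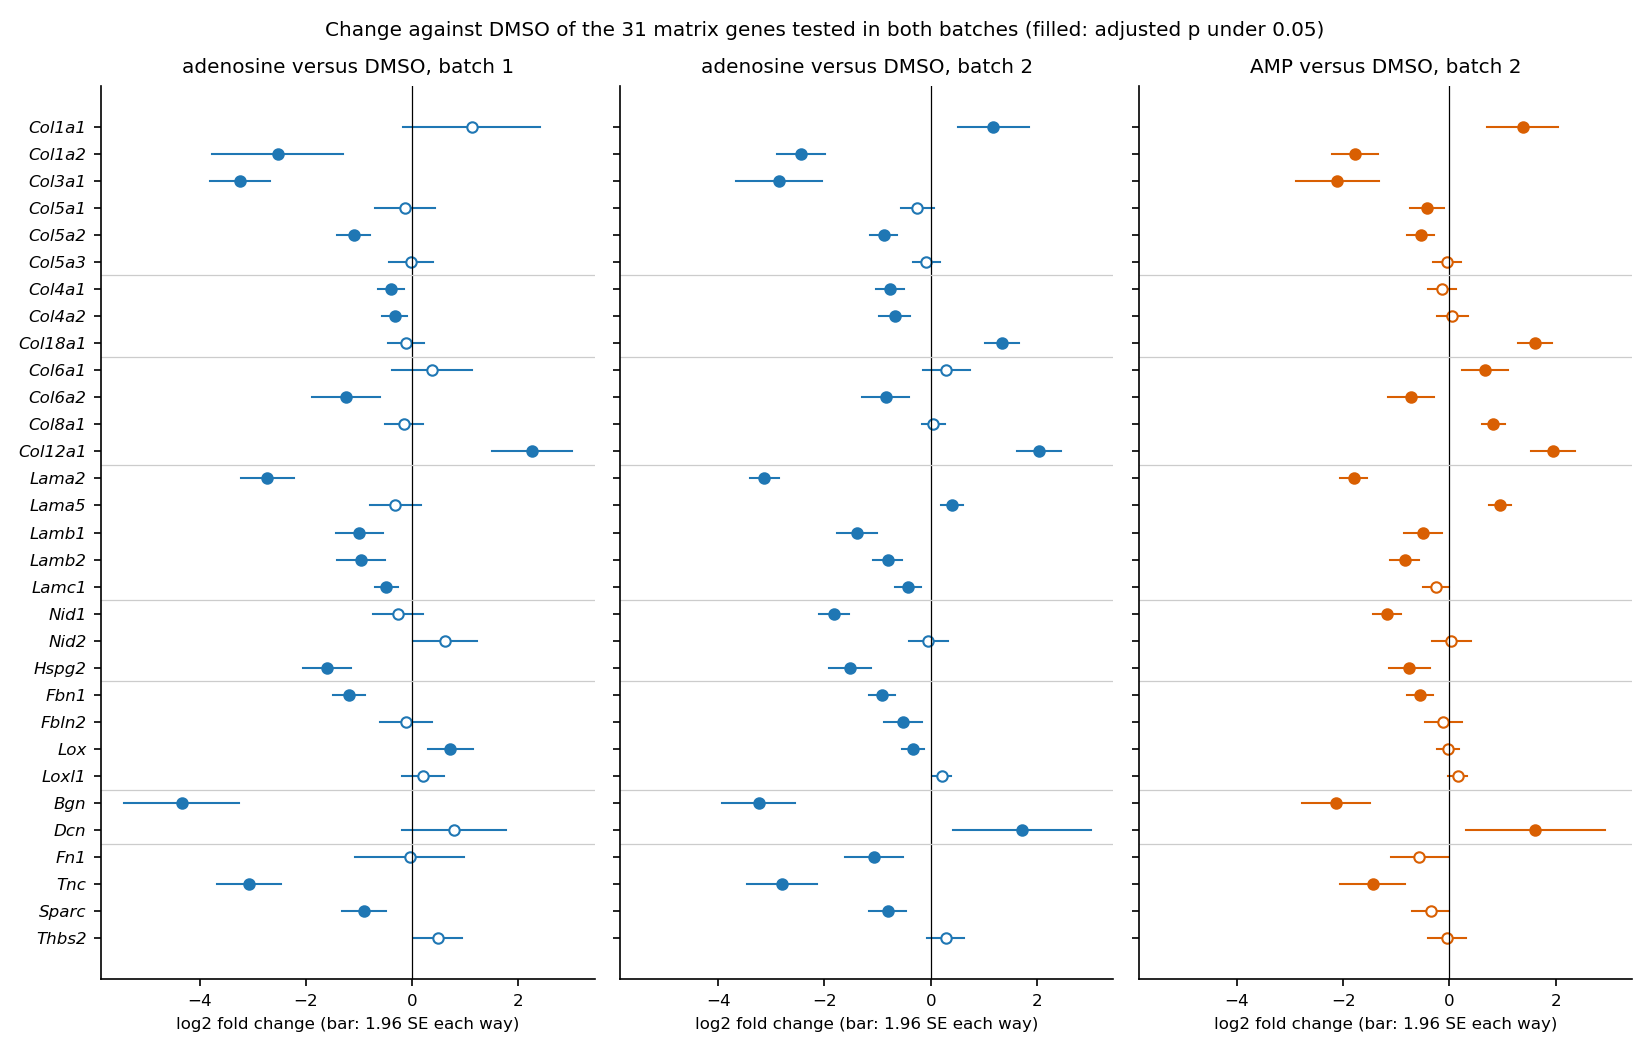
Log2 fold change against DMSO (horizontal axis) of the 31 genes tested in both batches, ordered by role with grey lines between roles, for 0.05 mM adenosine (left), 0.1 mM adenosine (middle) and 0.25 mM AMP (right); bars reach 1.96 standard errors each way and filled points had an adjusted p under 0.05. Bgn lay at -4.34, -3.24 and -2.14, and Col12a1 at 2.26, 2.04 and 1.95.

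Of the fibrillar collagens, 7 genes were listed and 6 were tested: Col1a2, Col3a1 and Col5a2 fell in all 3 comparisons with DMSO, whereas Col1a1 rose in batch 2. Col3a1 encodes the chain of collagen III, and Col5a2 a chain of collagen V, which starts and thins collagen fibres. They lie next to each other on chromosome 1 (GRCm38), at chr1:45311538-45349706 and chr1:45374321-45503282, on opposite strands. Col3a1 stood at 503, 527 and 292 CPM with DMSO in batch 1 and at 42.8, 64.4 and 33.1 with adenosine. Its batch 2 levels were 325, 493 and 425 CPM with DMSO, 38.7, 82.2 and 49.8 with adenosine and 69.1, 144 and 75.01 with AMP. No treated library reached any DMSO library of its batch. The fit put Col3a1 9.43-fold lower in batch 1 (log2 fold change -3.24, SE 0.29, adjusted p = 3.26e-05), 7.25-fold lower with 0.1 mM adenosine (log2 fold change -2.86, SE 0.42, adjusted p = 8.48e-04) and 4.31-fold lower with AMP (log2 fold change -2.11, SE 0.40, adjusted p = 0.00352).

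Col5a2, the most abundant fibrillar collagen transcript, fell less. It was measured at 874, 958 and 679 CPM with DMSO and 365, 477 and 329.7 with adenosine in batch 1. Its batch 2 levels were 484, 538 and 498 with DMSO, 267, 311 and 245 with adenosine and 347, 419.8 and 282 with AMP, again with no overlap with DMSO. These are falls of 2.14-fold (log2 fold change -1.10, SE 0.16, adjusted p = 1.38e-04), 1.85-fold (log2 fold change -0.89, SE 0.13, adjusted p = 7.40e-05) and 1.45-fold (log2 fold change -0.54, SE 0.13, adjusted p = 0.00324). Its partner Col5a1 had log2 fold changes of -0.14, -0.25 and -0.42, of which the AMP value was called (adjusted p = 0.0299). That call was lost without DMSO replicate 2 (-0.28, adjusted p = 0.174) and without AMP replicate 3 (-0.26, adjusted p = 0.168). Col5a3, a further collagen V chain, was not called in any comparison, with log2 fold changes from -0.08 to -0.02 against DMSO.

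In batch 2 the collagen I genes Col1a1 and Col1a2 moved in opposite directions, although their chains assemble into the same molecule. Col1a2 fell from 31.5 ± 14.4 to 5.47 ± 4.503 CPM in batch 1 (log2 fold change -2.53, SE 0.63, adjusted p = 0.0167). In batch 2 it fell from 18.7 ± 1.43 CPM to 3.402 ± 0.703 with adenosine (log2 fold change -2.45, SE 0.23, adjusted p = 2.68e-08) and to 5.43 ± 1.91 with AMP (log2 fold change -1.78, SE 0.22, adjusted p = 1.27e-06; SD, n = 3). Col1a1 was at 1.499, 2.32 and 2.56 CPM with DMSO in batch 2, at 3.42, 5.21 and 5.68 with adenosine and at 4.36, 8.39 and 3.84 with AMP, so every treated library lay above every DMSO library. Its rises were 2.26-fold with adenosine (log2 fold change 1.18, SE 0.34, adjusted p = 0.00502) and 2.61-fold with AMP (log2 fold change 1.38, SE 0.34, adjusted p = 0.00158). In batch 1 the groups overlapped, at 3.07, 19.6 and 10.2 with DMSO and 11.3, 33.9 and 25.5 with adenosine, and the difference was not called (log2 fold change 1.12, SE 0.66, adjusted p = 0.226). It was called without batch 1 DMSO replicate 2 (log2 fold change 1.85, adjusted p = 0.0365), and the batch 1 call of Col1a2 was lost without adenosine replicate 1 (adjusted p = 0.0646) and without the filter on low counts (adjusted p = 0.138). Col11a1, which encodes a chain of collagen XI, reached at most 1 count in a batch 1 library and was not tested.

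**Figure D2:**
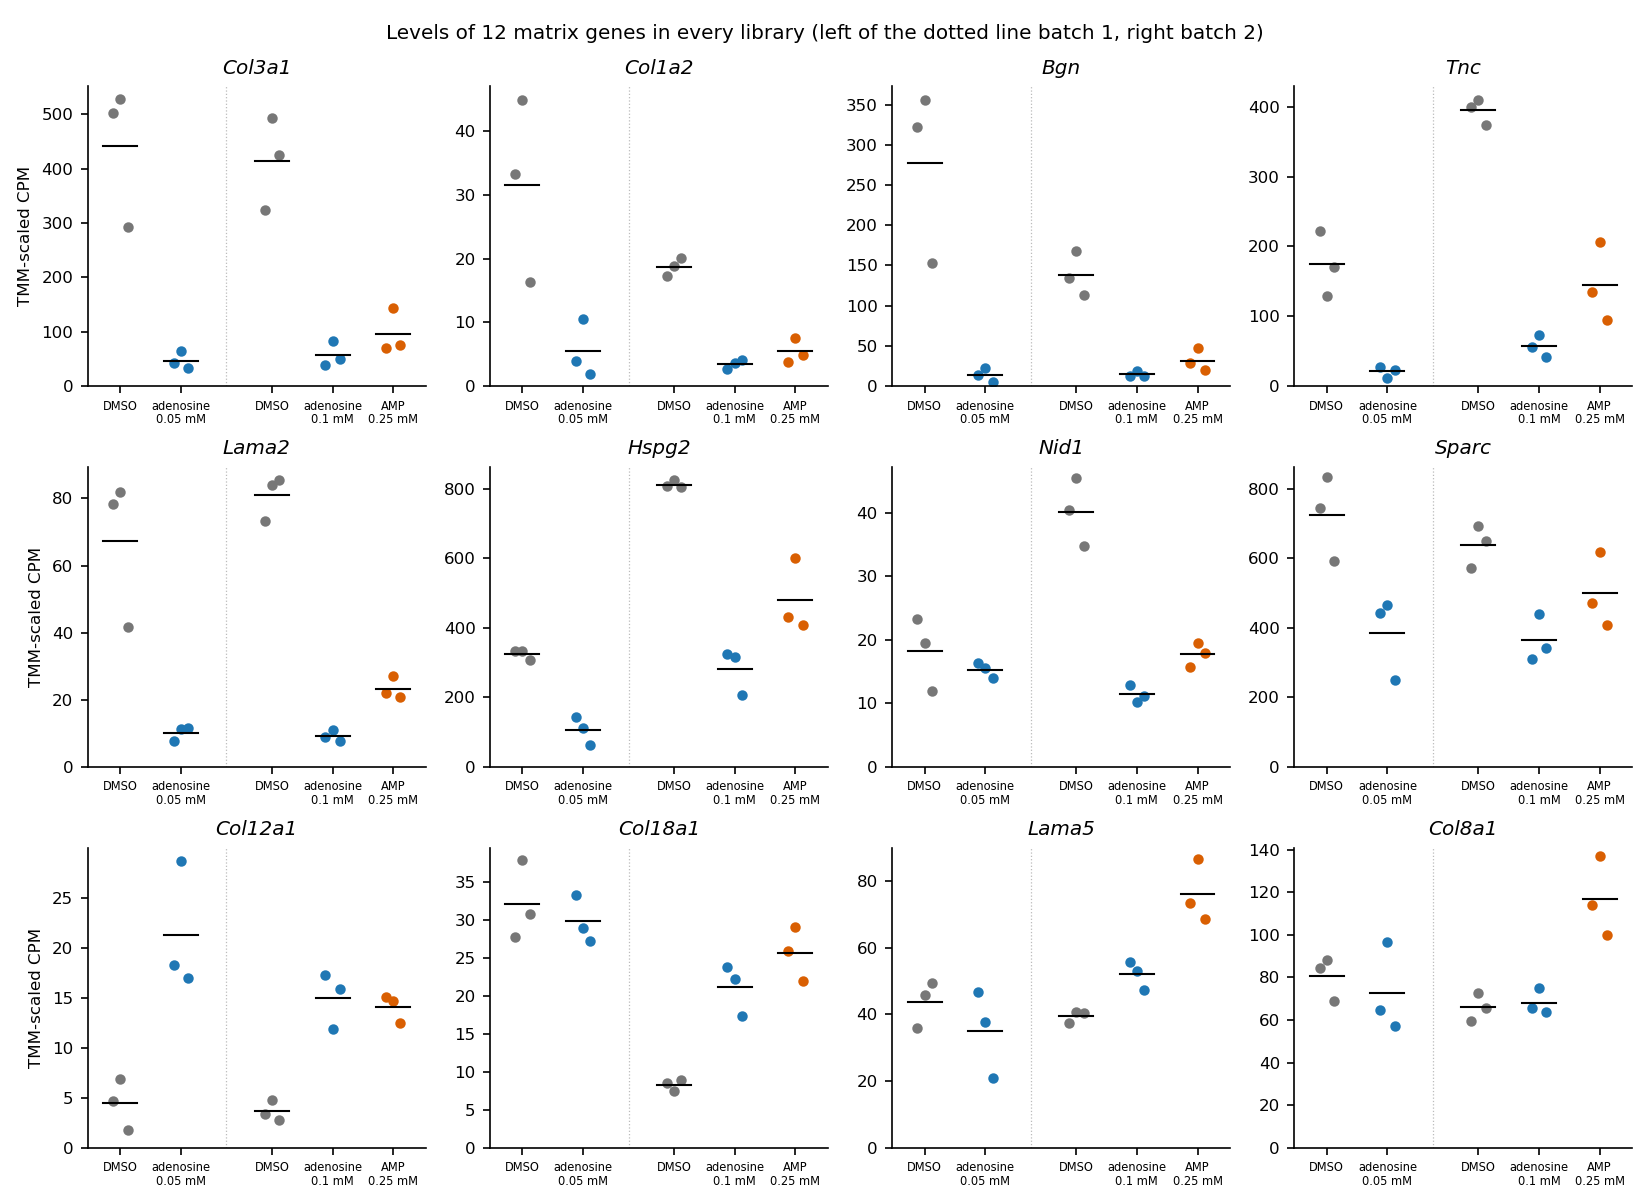
Level in TMM-scaled CPM (vertical axes, from 0) of 12 genes in each of the 15 libraries, by group; points are libraries, short lines are means, and the dotted line parts batch 1 from batch 2. Col3a1, Col1a2, Bgn, Tnc, Lama2 and Hspg2 have no treated library at or above a DMSO library of the same batch, and Col12a1 has every treated library above every DMSO library.

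Of the 4 basement membrane collagens, 3 were tested. Col4a1 and Col4a2, whose chains make the main collagen IV network, fell with adenosine in both batches but were not called after AMP. Col18a1, whose product is cut to release endostatin, rose with both compounds in batch 2. Col4a1 and Col4a2 lie head to head on chromosome 8 (GRCm38), at chr8:11198423-11312826 on the minus strand and chr8:11312805-11449287 on the plus strand. Their RefSeq start sites, 11312826 for Col4a1 and 11312805 for Col4a2, leave 22 bases that both transcripts begin with on opposite strands, shown here on the Col4a2 strand (GRCm38.p6) because the pair kept a near-constant ratio.
Col4a1 and Col4a2 overlap: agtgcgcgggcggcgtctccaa

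Levels of Col4a1 were 373, 446 and 385 CPM with DMSO and 337, 309 and 271 with adenosine in batch 1. In batch 2 they were 338, 419 and 391 with DMSO, 210.4, 246 and 220.2 with adenosine and 346, 423 and 280.0 with AMP. The adenosine libraries lay below DMSO in both batches, and the AMP libraries spanned the DMSO range. The fall was 1.31-fold in batch 1 (log2 fold change -0.39, SE 0.12, adjusted p = 0.0208) and 1.696-fold in batch 2 (log2 fold change -0.76, SE 0.14, adjusted p = 4.02e-04), and the AMP value was -0.13 (interval of 1.96 SE each way -0.39 to 0.13). Col4a2 was at 192, 192 and 167 CPM with DMSO and 157, 155 and 129.5 with adenosine in batch 1, and at 173, 212 and 193 with DMSO, 113, 144 and 104 with adenosine and 204, 232 and 164 with AMP in batch 2. It too lay below DMSO with adenosine and overlapped DMSO with AMP, with a fall of 1.25-fold in batch 1 (log2 fold change -0.32, SE 0.12, adjusted p = 0.0483) and 1.598-fold in batch 2 (log2 fold change -0.68, SE 0.15, adjusted p = 0.00244), and 0.05 with AMP (-0.24 to 0.35). The batch 1 falls rested on few libraries. That of Col4a1 was lost without DMSO replicate 2 (adjusted p = 0.104) or adenosine replicate 3 (0.0807), as well as with library totals (-0.20, adjusted p = 0.209). That of Col4a2 was lost without DMSO replicate 1 (adjusted p = 0.133) or 2 (0.144), without adenosine replicate 2 (0.0547) or 3 (0.149) and with library totals (-0.13, adjusted p = 0.431). In the authors' deposited table the batch 1 change of Col4a2 has an adjusted p of 0.053. Without AMP replicate 2, Col4a1 was called lower after AMP (-0.29, adjusted p = 0.0237). With library totals Col4a2 was called higher after AMP (0.32, adjusted p = 0.0434).

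Col18a1 responded differently in the 2 batches. Its batch 1 libraries overlapped, at 27.8, 37.98 and 30.8 CPM with DMSO and 33.3, 29.01 and 27.3 with adenosine. In batch 2 DMSO left it at 8.598, 7.46 and 8.97, against 23.9, 22.2 and 17.4 with adenosine and 25.9, 29.1 and 21.96 with AMP, with no overlap. It rose 2.53-fold with 0.1 mM adenosine (log2 fold change 1.34, SE 0.16, adjusted p = 7.35e-07) and 3.06-fold with AMP (log2 fold change 1.61, SE 0.16, adjusted p = 8.83e-08). Col15a1, the other collagen of this type, had 36 counts in its highest library and was not tested. The authors' deposited table gives it a log2 ratio of DMSO over adenosine of -5.24 with an adjusted p of 0.0145, whereas its level was 2.32 CPM in 1 adenosine library of batch 1 and at or below 0.115 CPM in the other 5.

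Among collagen VI and the other collagens, 6 genes were listed, 5 were tested in batch 1 and 4 in batch 2. Col12a1, whose collagen XII sits on the surface of collagen fibres, was the single gene of the whole list that rose in all 3 comparisons. It was at 4.65, 6.88 and 1.82 CPM with DMSO and 18.3, 28.6 and 16.97 with adenosine in batch 1. The batch 2 libraries gave 3.39, 4.74 and 2.84 with DMSO, 17.3, 11.9 and 15.9 with adenosine and 15.03, 14.7 and 12.4 with AMP. The treated libraries lay above DMSO throughout, and adenosine and AMP overlapped. The rises were 4.79-fold (log2 fold change 2.26, SE 0.39, adjusted p = 6.10e-04), 4.12-fold (log2 fold change 2.04, SE 0.21, adjusted p = 9.82e-08) and 3.86-fold (log2 fold change 1.95, SE 0.21, adjusted p = 2.74e-07).

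Col8a1, a chain of the short-chain collagen VIII, rose with AMP and was not called with adenosine. Its levels in batch 1 were 84.6, 88.2 and 68.8 CPM with DMSO and 64.8, 96.7 and 57.2 with adenosine, and the groups overlapped. In batch 2 they were 59.3, 72.6 and 65.8 with DMSO, 65.6, 75.3 and 63.6 with adenosine and 114, 137 and 99.9 with AMP, and every AMP library lay above every other library. The AMP rise was 1.78-fold (log2 fold change 0.83, SE 0.11, adjusted p = 4.56e-06), and the adenosine value in batch 2 was 0.05 (adjusted p = 0.694, or 0.36 and 0.00462 with library totals).

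Collagen VI surrounds the muscle fibre and is built from several chains, among them those of the neighbouring genes Col6a1 (chr10:76708792-76726168) and Col6a2 (chr10:76595762-76623630). Col6a2 fell in all 3 comparisons, by 2.37-fold (log2 fold change -1.24, SE 0.32, adjusted p = 0.0082), 1.804-fold (log2 fold change -0.85, SE 0.23, adjusted p = 0.00256) and 1.65-fold (log2 fold change -0.72, SE 0.23, adjusted p = 0.00888). With library totals its AMP value was -0.46 and was not called (adjusted p = 0.0845). Col6a1 was at 15.5, 7.51 and 6.12 CPM with DMSO and 16.5, 6.68 and 14.9 with adenosine in batch 1. Batch 2 showed 5.68, 9.17 and 7.96 with DMSO, 8.51, 11.96 and 7.29 with adenosine and 9.96, 12.03 and 13.8 with AMP, and only AMP kept clear of DMSO. The AMP rise was 1.58-fold (log2 fold change 0.66, SE 0.22, adjusted p = 0.0134), and it was not called without DMSO replicate 1 (adjusted p = 0.0815) or AMP replicate 3 (0.0657). Col6a3 had at most 27 counts in a library and was not tested, and Col16a1, a fibre-associated collagen tested in batch 1 alone, was not called (log2 fold change 0.23, adjusted p = 0.788).

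Of the 6 laminin chain genes, 5 were tested: Lama2, Lamb1 and Lamb2 fell in all 3 comparisons with DMSO, Lamc1 fell with adenosine in both batches, and Lama5 rose in batch 2. Lama2 encodes the alpha 2 chain of the main laminin of the muscle basal lamina, whose loss causes a congenital muscular dystrophy. It was at 78.2, 81.9 and 41.8 CPM with DMSO and 7.67, 11.2 and 11.6 with adenosine in batch 1. In batch 2 it was at 73.3, 83.98 and 85.5 with DMSO, 8.83, 10.97 and 7.76 with adenosine and 21.96, 26.9 and 20.8 with AMP. The 3 groups of batch 2 were fully separate, with AMP between adenosine and DMSO. Lama2 was 6.62-fold lower in batch 1 (log2 fold change -2.73, SE 0.26, adjusted p = 6.40e-06), 8.77-fold lower with 0.1 mM adenosine (log2 fold change -3.13, SE 0.14, adjusted p = 1.29e-12) and 3.48-fold lower with AMP (log2 fold change -1.80, SE 0.13, adjusted p = 1.04e-09).

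Lama5, the alpha chain of a laminin found widely in basement membranes, moved the other way in batch 2. Levels there were 37.4, 40.6 and 40.4 CPM with DMSO, 55.8, 52.97 and 47.3 with adenosine and 73.4, 86.6 and 68.6 with AMP. The groups did not overlap, and AMP was the highest. The rise was 1.32-fold with adenosine (log2 fold change 0.40, SE 0.10, adjusted p = 0.00208) and 1.93-fold with AMP (log2 fold change 0.95, SE 0.10, adjusted p = 2.24e-07). In batch 1 Lama5 was at 35.8, 45.8 and 49.3 with DMSO and 46.7, 37.8 and 21.05 with adenosine, the groups overlapped, and the value was -0.31 (adjusted p = 0.337).

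The beta chains Lamb1 and Lamb2 and the gamma chain Lamc1 combine with either alpha chain. Lamb1 was at 21.8, 18.3 and 15.7 CPM with DMSO and 8.19, 10.8 and 9.15 with adenosine in batch 1, and at 18.8, 15.5 and 22.1 with DMSO, 6.52, 9.29 and 5.84 with adenosine and 13.5, 14.9 and 11.6 with AMP in batch 2. Its falls were 1.99-fold, 2.60-fold and 1.41-fold, in that order of comparisons, with adjusted p of 0.00336, 3.95e-06 and 0.0231. The AMP call was lost without DMSO replicate 3 (adjusted p = 0.138), AMP replicate 1 (0.0508) or AMP replicate 3 (0.0947), and with library totals (-0.24, adjusted p = 0.277). Lamb2 was at 41.8, 40.6 and 32.8 with DMSO and 24.2, 12.2 and 22.6 with adenosine in batch 1. It was at 46.1, 62.5 and 55.5 with DMSO, 28.5, 34.5 and 30.5 with adenosine and 27.4, 37.1 and 26.9 with AMP in batch 2, so that adenosine and AMP overlapped below DMSO. Its falls were 1.95-fold, 1.75-fold and 1.79-fold (adjusted p = 0.00495, 4.17e-05 and 3.56e-05). Lamc1 was at 119, 122 and 119 with DMSO and 89.2, 81.4 and 86.6 with adenosine in batch 1, and at 95.3, 96.7 and 90.8 with DMSO, 83.8, 61.8 and 65.2 with adenosine and 77.9, 92.9 and 65.9 with AMP in batch 2. It changed little in size, by 1.40-fold (log2 fold change -0.49, SE 0.11, adjusted p = 0.00393) and 1.34-fold (log2 fold change -0.42, SE 0.12, adjusted p = 0.00719), and both calls were lost with library totals (adjusted p = 0.0543 and 0.316). After AMP, Lamc1 was at -0.26 (adjusted p = 0.0823) and was called lower without AMP replicate 2 (-0.39, adjusted p = 0.00791). Lama4 had at most 17 counts in a library and was not tested.

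Of the nidogens and perlecan, which link the laminin and collagen IV networks, Hspg2 fell in all 3 comparisons with DMSO. Hspg2 encodes perlecan, a large heparan sulfate proteoglycan, and was at 333, 334 and 307 CPM with DMSO and 143, 113 and 64.1 with adenosine in batch 1. Its batch 2 levels were 808, 825 and 804 with DMSO, 324, 315 and 208 with adenosine and 432, 600.4 and 409.5 with AMP. The DMSO libraries were tight, and the 3 groups of batch 2 did not overlap. Perlecan fell 3.04-fold (log2 fold change -1.61, SE 0.23, adjusted p = 2.71e-04), 2.87-fold (log2 fold change -1.52, SE 0.20, adjusted p = 2.41e-04) and 1.69-fold (log2 fold change -0.76, SE 0.20, adjusted p = 0.0106).

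Nid1 fell in batch 2, where it was at 40.4, 45.5 and 34.8 CPM with DMSO, 12.9, 10.2 and 11.1 with adenosine and 15.7, 19.6 and 17.97 with AMP. The falls were 3.53-fold (log2 fold change -1.82, SE 0.14, adjusted p = 2.26e-09) and 2.26-fold (log2 fold change -1.18, SE 0.14, adjusted p = 6.28e-07), and the 3 groups were again separate. Its batch 1 levels overlapped, at 23.3, 19.6 and 11.97 with DMSO and 16.4, 15.5 and 13.99 with adenosine, with no call (log2 fold change -0.26, SE 0.24, adjusted p = 0.423). Its paralogue Nid2 was not called against DMSO in either batch (0.62, -0.05 and 0.04). In batch 1 Nid2 was called higher without adenosine replicate 2 (0.84, adjusted p = 0.0463) and with library totals (0.81, adjusted p = 0.0459). Nid2 shares 7.9% of its exon bases with Rtraf on the opposite strand, and the counting of batch 1 used no strand option. The setting for batch 2 was not found.

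The elastic fibre and crosslinking genes gave mixed results: of 6 listed, Fbn1 fell in all 3 comparisons with DMSO and Lox was called in opposite directions in the 2 batches. Fbn1, the main microfibril protein, fell 2.28-fold (log2 fold change -1.19, SE 0.15, adjusted p = 5.18e-05), 1.88-fold (log2 fold change -0.91, SE 0.12, adjusted p = 3.22e-06) and 1.47-fold (log2 fold change -0.56, SE 0.12, adjusted p = 6.67e-04). Of its exon bases, 20.1% are shared with Gm9913 on the opposite strand, whose reads cannot be told apart in batch 1. Lox encodes lysyl oxidase, the enzyme that starts the crosslinking of collagen and elastin. It was at 84.1, 88.2 and 47.1 CPM with DMSO and 108, 150.4 and 103 with adenosine in batch 1, a rise of 1.65-fold (log2 fold change 0.72, SE 0.22, adjusted p = 0.0213). The batch 2 libraries gave 42.8, 47.4 and 40.4 with DMSO, 35.1, 34.05 and 34.5 with adenosine and 43.1, 47.2 and 37.5 with AMP. Adenosine lay just below DMSO, a fall of 1.26-fold (log2 fold change -0.33, SE 0.11, adjusted p = 0.0104), and AMP overlapped DMSO (-0.03, adjusted p = 0.817). The rise was not called without adenosine replicate 1 (adjusted p = 0.0539) or 2 (0.102), and the fall was not called without DMSO replicate 2 (0.0607) or with library totals (-0.02, adjusted p = 0.851).

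Loxl1, a lysyl oxidase of elastic fibres and the most abundant gene of its group, was not called against DMSO. It was at 209, 234 and 162 CPM with DMSO and 307, 222 and 165 with adenosine in batch 1, and at 111, 130.1 and 145 with DMSO, 139, 152 and 153 with adenosine and 141, 156 and 132 with AMP in batch 2. The groups overlapped in every comparison. With 0.1 mM adenosine its value of 0.20 was just short of the threshold (adjusted p = 0.0518), and it was called without DMSO replicate 3 (0.0129) or adenosine replicate 1 (0.0357), as well as with library totals (0.52, adjusted p = 3.76e-05). After AMP, without DMSO replicate 3, it was called higher as well (0.25, adjusted p = 0.0374). Fbln2, a fibulin that bridges fibres and basement membrane, fell 1.44-fold with 0.1 mM adenosine alone (log2 fold change -0.53, SE 0.18, adjusted p = 0.0152), and not without DMSO replicate 2 (adjusted p = 0.101), without adenosine replicate 1 (0.0668) or with library totals (-0.22, adjusted p = 0.3). Fbln5, tested in batch 1, was at -1.09 (adjusted p = 0.147), and Eln, the elastin gene, had at most 11 counts in a library and was not tested.

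Of the 4 small leucine-rich proteoglycans, Bgn had the lowest point estimate of the whole list in each comparison with DMSO. In batch 2 that order is not resolved, since Lama2 at -3.13 with 0.1 mM adenosine and Col3a1 at -2.11 with AMP lay within the interval of Bgn, and in batch 1 the intervals of Bgn (-5.43 to -3.25) and Col3a1 (-3.81 to -2.67) overlapped. Bgn encodes biglycan, which binds collagen fibres and growth factors. It was at 322, 356 and 153 CPM with DMSO and 13.8, 21.9 and 5.45 with adenosine in batch 1. Batch 2 showed 134, 168 and 113 with DMSO, 12.6, 18.2 and 12.9 with adenosine and 27.9, 46.9 and 19.9 with AMP. The 3 groups of batch 2 were separate, with AMP between adenosine and DMSO. The fit gave falls of 20.2-fold (log2 fold change -4.34, SE 0.56, adjusted p = 9.83e-04), 9.45-fold (log2 fold change -3.24, SE 0.35, adjusted p = 1.43e-04) and 4.396-fold (log2 fold change -2.14, SE 0.33, adjusted p = 0.00106).

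Dcn, which encodes decorin, a close relative of biglycan, was scarce, at 1.84, 1.47 and 2.22 CPM with DMSO and 3.997, 4.32 and 1.32 with adenosine in batch 1. In batch 2 it was at 0.158, 1.01 and 1.01 with DMSO, 1.19, 3.799 and 1.92 with adenosine and 0.8002, 1.95 and 3.69 with AMP, and AMP overlapped DMSO. It was called higher in batch 2 with adenosine (log2 fold change 1.72, SE 0.66, adjusted p = 0.0309) and AMP (log2 fold change 1.62, SE 0.67, adjusted p = 0.0447), on few counts. The adenosine call was lost without DMSO replicate 1 (1.20, adjusted p = 0.109) or adenosine replicate 2 (1.14, adjusted p = 0.148). The AMP call was lost without DMSO replicate 1, 2 or 3 (adjusted p = 0.148, 0.0579 and 0.0559) and without AMP replicate 2 or 3 (0.066 and 0.24). Lum and Fmod, for lumican and fibromodulin, had at most 9 and 18 counts in a library and were not tested.

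Among fibronectin and the matricellular genes, which regulate how cells hold to the matrix, Tnc fell in all 3 comparisons with DMSO and Sparc with adenosine in both batches. Tnc encodes tenascin-C, a large glycoprotein of growing and regenerating tissue. It was at 223, 129 and 171 CPM with DMSO and 27.1, 11.8 and 23.5 with adenosine in batch 1. Its batch 2 levels were 400.3, 409.8 and 374 with DMSO, 55.7, 72.3 and 41.5 with adenosine and 134, 207 and 93.9 with AMP. No groups overlapped, and AMP lay between adenosine and DMSO. Tnc fell 8.402-fold (log2 fold change -3.07, SE 0.31, adjusted p = 5.59e-05), 6.97-fold (log2 fold change -2.80, SE 0.34, adjusted p = 2.92e-04) and 2.73-fold (log2 fold change -1.45, SE 0.32, adjusted p = 0.00635).

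Sparc encodes osteonectin, a collagen-binding protein, and was the most abundant transcript of the list by FPKM. It was at 745, 833 and 591 CPM with DMSO and 441, 465 and 249 with adenosine in batch 1, and at 572, 693 and 648 with DMSO, 310.3, 439.7 and 341 with adenosine and 471, 616 and 408 with AMP in batch 2. Adenosine lay below DMSO in both batches, and AMP overlapped both. The falls were 1.88-fold (log2 fold change -0.91, SE 0.21, adjusted p = 0.00488) and 1.75-fold (log2 fold change -0.81, SE 0.18, adjusted p = 0.00331), and the AMP value was -0.36 (adjusted p = 0.108). It was called without AMP replicate 2 (-0.54, adjusted p = 0.00477). Fn1, for fibronectin, was at 0.244 ± 0.185 FPKM with DMSO in batch 1 and 0.7602 ± 0.153 in batch 2, and fell 2.11-fold with 0.1 mM adenosine (log2 fold change -1.07, SE 0.28, adjusted p = 0.00232). Its AMP value was -0.57 (adjusted p = 0.0757), and it was called without AMP replicate 2 (-1.01, adjusted p = 0.00264). Thbs2, for thrombospondin-2, was not called against DMSO (0.49, 0.28 and -0.04), except that library totals called it higher in batch 1 and with 0.1 mM adenosine (adjusted p = 0.0322 and 0.00468). Postn, for periostin, had at most 15 counts in a library and was not tested.

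Chains of the same kind of molecule, and some related genes, were also compared in pairs within each library. The ratio of their FPKM does not depend on the scaling between libraries. The ratio of Col1a1 to Col1a2 was 0.1704, 0.806 and 1.15 with DMSO and 5.34, 5.95 and 24.4 with adenosine in batch 1. In batch 2 it was 0.161, 0.227 and 0.236 with DMSO, 2.41, 2.68 and 2.63 with adenosine and 2.11, 2.06 and 1.44 with AMP. By FPKM, Col1a2 exceeded Col1a1 in 5 of the 6 DMSO libraries, and Col1a1 exceeded Col1a2 in all 9 treated ones. Which gene was higher depends on the exon lengths used, 12136 bases for Col1a2 and 6563 for Col1a1. Counts of Col1a2 and Col1a1 were 243 and 151 in batch 1 DMSO replicate 3, and 64 and 50 in AMP replicate 3. Col1a1 had 19 to 28 counts in the batch 2 DMSO libraries. The geometric mean of the ratio was 17.0-fold higher with adenosine in batch 1, 12.5-fold higher with adenosine in batch 2 and 8.97-fold higher with AMP.

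The ratio of Lama5 to Lama2, which encode alternative alpha chains, was 0.657, 0.802 and 1.69 with DMSO and 8.73, 4.86 and 2.61 with adenosine in batch 1. In batch 2 it was 0.732, 0.694 and 0.677 with DMSO, 9.07, 6.92 and 8.75 with adenosine and 4.79, 4.61 and 4.73 with AMP, so that all 3 groups were separate. Its geometric mean rose 4.99-fold, 11.7-fold and 6.72-fold. Col6a1 over Col6a2 was 3.21-fold, 2.25-fold and 2.62-fold higher than with DMSO. In contrast, Col4a1 over Col4a2 stayed between 1.65 and 2.25 in all 15 libraries, with 1.05-fold and 1.05-fold lower means with adenosine and a 1.14-fold lower mean with AMP. A two-sided exact permutation test of 3 against 3 libraries cannot give a p below 0.1, and each of these comparisons reached 0.1 except Col4a1 over Col4a2 with adenosine, at 0.5 in both batches. Over the 32 ratio comparisons made, from 8 pairs, 0.1 adjusted to 0.152 by Benjamini-Hochberg, so none of them could pass.

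**Figure D3:**
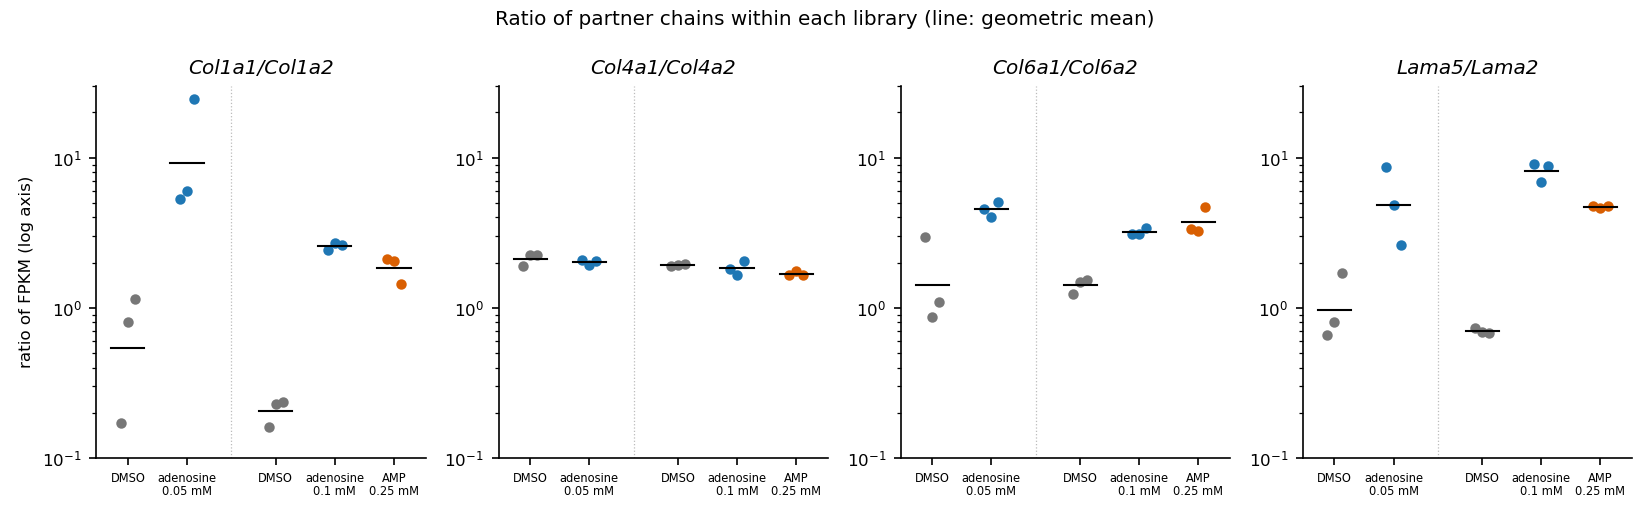
Ratio of the FPKM of paired chains in each of the 15 libraries (vertical log axes), by group. Points are libraries and lines are geometric means. Lama5 and Lama2 encode alternative alpha chains of laminin. Col4a1 over Col4a2 stays between 1.65 and 2.25, whereas Col1a1 over Col1a2 runs from 0.161 to 24.4.

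AMP at 0.25 mM was compared directly with adenosine at 0.1 mM in batch 2, in the joint fit that also held the DMSO libraries. Where the compounds differed, the matrix genes were higher with AMP: 7 of the 31 were called higher and none lower by edgeR, against 4.62% called higher and 2.1% called lower over all genes. None of the 31 was lower at an unadjusted p under 0.05 either, and DESeq2 called none lower. The point estimate was above 0 for 25 of the 31 genes, against 49.5% of all genes, and the median was 0.37, against 0.00 over all genes. The groups did not overlap for 12 of the 31, against 23.6% of all genes. For genes that had fallen with adenosine, a higher level with AMP means a smaller fall against the shared DMSO libraries.

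The 7 genes were Lama2 (2.52-fold; log2 fold change 1.33, SE 0.14, adjusted p = 2.79e-05), Lamb1 (1.84-fold; log2 fold change 0.88, SE 0.19, adjusted p = 0.00829), Col8a1 (1.71-fold; log2 fold change 0.78, SE 0.11, adjusted p = 2.60e-04) and Col4a2 (1.66-fold; log2 fold change 0.73, SE 0.15, adjusted p = 0.0179). The rest were Nid1 (1.56-fold; log2 fold change 0.64, SE 0.15, adjusted p = 0.0102), Col4a1 (1.55-fold; log2 fold change 0.63, SE 0.14, adjusted p = 0.0179) and Lama5 (1.46-fold; log2 fold change 0.55, SE 0.10, adjusted p = 0.00184). Of these, 6 encode proteins of the basement membrane, and Col8a1 encodes a short-chain collagen. By role, they were 2 of 3 tested basement membrane collagens, 3 of 5 laminin chains and 1 of 3 nidogens and perlecan. Col8a1 was 1 of 4 in its role. None was called of 6 fibrillar collagens, 4 elastic fibre and crosslinking genes, 2 small proteoglycans and 4 fibronectin and matricellular genes. These counts hold at the threshold used, and several calls changed in other settings. Lama2, Col8a1 and Lama5 kept their calls in each of the 14 alternative settings tried. The calls of Lamb1 and Nid1 were lost with limma-trend on log2(FPKM + 1) (adjusted p = 0.0714 and 0.0593). That of Lamb1 was also lost without adenosine replicate 3 (adjusted p = 0.066). Those of Col4a1 and Col4a2 were lost without adenosine replicate 1 (adjusted p = 0.0638 and 0.0723), adenosine replicate 3 (0.0979 and 0.0637) or AMP replicate 1 (0.0695 and 0.0721). That of Nid1 was further lost without adenosine replicate 2 (adjusted p = 0.0512), adenosine replicate 3 (0.0522) or AMP replicate 2 (0.0535).

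Tnc, Bgn and Hspg2 had differences as large but wider errors, at 1.35, 1.10 and 0.77, and did not pass (adjusted p = 0.0674, 0.144 and 0.0692), although for each of them every AMP library lay above every adenosine library. All 3 passed with DESeq2 (adjusted p = 0.00115, 0.0291 and 0.00827). They also passed in edgeR with a replicate block (adjusted p = 0.000484, 1.89e-05 and 0.0015), although the labels give no source shared by libraries of the same number. Col3a1, Col5a2, Fbn1 and Sparc passed with that block too (adjusted p = 0.000511, 0.00805, 0.0337 and 0.00137). Without AMP replicate 3 Tnc and Bgn passed in edgeR (adjusted p = 0.0248 and 0.0461), as did Col5a2 (0.48, 0.00774) and Lox (0.39, 0.0372). Hspg2 passed without adenosine replicate 3 (adjusted p = 0.0329) and Sparc without adenosine replicate 2 (0.61, 0.0329). Of the genes that rose with both compounds, Lama5 was called between them and the other 4 were not. The difference was -0.10 for Col12a1 (interval of 1.96 SE each way -0.46 to 0.27), 0.21 for Col1a1 (-0.39 to 0.81), 0.28 for Col18a1 (-0.01 to 0.57) and -0.10 for Dcn (-1.20 to 1.00). Lamb2, which fell with both, differed by -0.03 (-0.31 to 0.24).

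Within batch 2, the libraries numbered 2 stood apart for many of the matrix genes. In each of the 3 groups of batch 2, replicate 2 was the highest library for 15 of the 31 matrix genes (48.4%), among them Col3a1, Bgn, Tnc, Sparc and Col4a1, against 7.52% of all 13063 genes. The differentiation gene Myog was also highest there, at 3.00, 18.6 and 9.52 CPM with DMSO, 1.27, 11.8 and 3.53 with adenosine and 2.31, 13.1 and 6.07 with AMP. In batch 1 Myog was at 23.2, 14.8 and 8.14 CPM with DMSO and 1.61, 4.15 and 0.110 with adenosine, a called fall (log2 fold change -2.98, SE 0.87, adjusted p = 0.0305). The part of Myog-expressing cells in these levels was not tested.

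**Figure D4:**
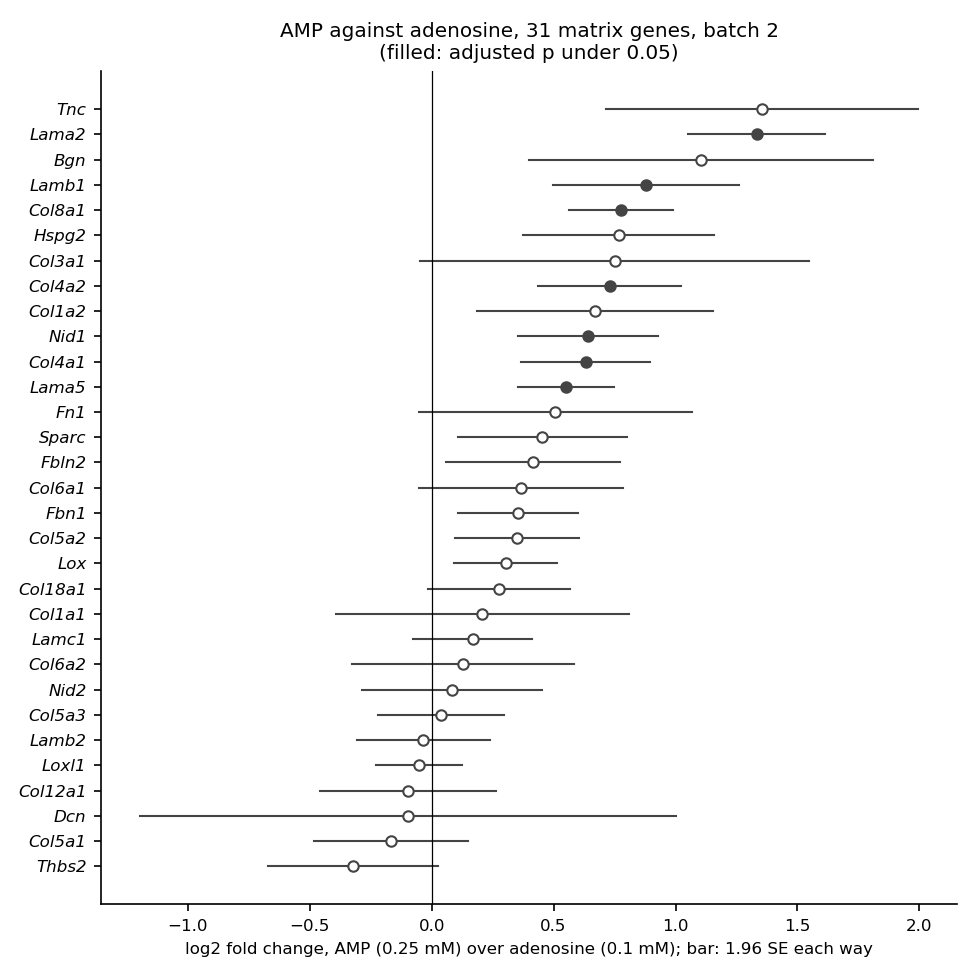
Log2 fold change of AMP over adenosine in batch 2 (horizontal axis) for the 31 tested genes, ordered by size; bars reach 1.96 standard errors each way and filled points had an adjusted p under 0.05. The 7 filled points, from Lama5 at 0.55 to Lama2 at 1.33, all lie above 0.

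Adenosine was given to separate cells at 0.05 mM in batch 1 and 0.1 mM in batch 2, and the 2 batches share no library. Of the 31 genes tested in both, 17 were called in both batches, 16 in the same direction and 1, Lox, in opposite directions. Over the 12608 genes tested in both, 36.9% were called in both batches, 36.6% in the same direction and 0.293% in opposite directions. Bgn, Col3a1, Tnc, Lama2, Col1a2 and Hspg2 were the 6 largest falls in batch 1, and the log2 fold changes were -4.34 and -3.24 for Bgn, -3.24 and -2.86 for Col3a1 and -2.73 and -3.13 for Lama2 in batches 1 and 2. A fit over the 12 DMSO and adenosine libraries of both batches tested the difference of the effects. It called 1 of the 31 genes higher and 2 lower in batch 2, against 5.34% and 5.02% of 13037 genes, so that the count lay near that of all genes.

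The adenosine effect on Col18a1 was 1.45 log2 units higher in batch 2 (SE 0.24, adjusted p = 0.00161), that on Nid1 was -1.55 (SE 0.28, adjusted p = 0.00318) and that on Lox was -1.05 (SE 0.28, adjusted p = 0.0288). For Col18a1 and Nid1 the DMSO levels of the 2 batches also differed, with Col18a1 at 32.2 ± 5.25 and 8.34 ± 0.785 CPM and Nid1 at 18.3 ± 5.78 and 40.2 ± 5.35 CPM (SD, n = 3), in tables scaled separately. Dose and batch cannot be told apart in these differences. The Lox difference was lost without any 1 of the 6 batch 2 libraries (adjusted p = 0.0504 to 0.0783) and with library totals (0.0568). Without batch 1 DMSO replicate 1 Fn1 was called (-1.86, adjusted p = 0.0194), and without batch 1 adenosine replicate 1 Lama5 was called (0.98, adjusted p = 0.0268).

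**Figure D5:**
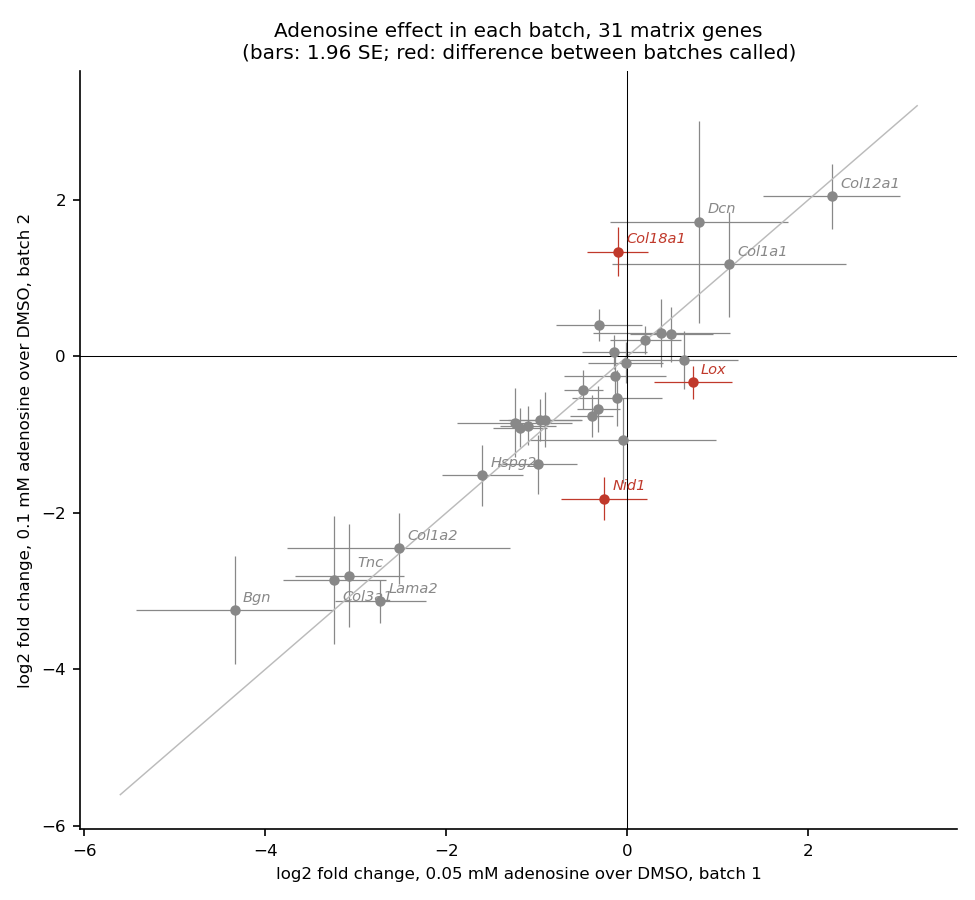
Log2 fold change with 0.05 mM adenosine in batch 1 (horizontal axis) and with 0.1 mM adenosine in batch 2 (vertical axis) for the 31 genes tested in both; bars reach 1.96 standard errors and the grey diagonal marks equal change. Red points mark the 3 genes whose change differed between batches, Col18a1 (1.45), Nid1 (-1.55) and Lox (-1.05).

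Further lists of matrix genes were counted in the same way, beside 19.7% of all genes lower and 19.8% higher in batch 1, 34.6% and 35% with 0.1 mM adenosine, and 31.9% and 33.8% with AMP. Of 12 tested proteoglycans outside the list, 8 fell and 3 rose with 0.1 mM adenosine, and 7 fell and 4 rose with AMP, with medians of -1.44 and -0.91. In batch 1 it was 7 lower and 2 higher of 12 tested. Of the syndecans, cell-surface heparan sulfate proteoglycans, those that fell with 0.1 mM adenosine included Sdc1 (log2 fold change -1.98, SE 0.12, adjusted p = 1.24e-10), Sdc3 (log2 fold change -1.78, SE 0.15, adjusted p = 1.12e-08) and Sdc2 (log2 fold change -1.57, SE 0.17, adjusted p = 1.03e-05). Sdc4, on the same list, lay the other way. It was at 1276 to 1548 CPM with DMSO and 1950 to 2133 with adenosine in batch 1. In batch 2 it was at 1069 to 1086 with DMSO, 1260 to 1356 with adenosine and 1082 to 1332 with AMP. Of 13 tested matrix receptors, 10 fell and 1 rose with 0.1 mM adenosine and 10 fell and 2 rose with AMP, and in batch 1 it was 5 and 2 of 15. They included Itga7, the laminin-binding integrin chain of muscle, at 1132 ± 57.2 CPM with DMSO and 445 ± 94.1 with adenosine (log2 fold change -1.35, SE 0.15, adjusted p = 1.75e-05), and Dag1, for dystroglycan, another laminin receptor, at 805 ± 54.4 and 340.4 ± 21.8 CPM (log2 fold change -1.24, SE 0.11, adjusted p = 7.39e-08). Itgb6, for an integrin beta chain, was lower too (log2 fold change -2.72, SE 0.29, adjusted p = 1.50e-06).

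Genes that modify, fold and export collagen changed in both directions. Of 25 tested, 7 fell and 4 rose in batch 1 (all genes, 19.7% and 19.8%), 13 fell and 6 rose with 0.1 mM adenosine (34.6% and 35%), and 11 fell and 6 rose with AMP (31.9% and 33.8%). Serpinh1, the collagen chaperone HSP47, fell from 691 ± 11.7 to 137 ± 31.7 CPM with 0.1 mM adenosine (log2 fold change -2.33, SE 0.20, adjusted p = 1.16e-05) and from 1124 ± 37.5 to 263 ± 47.8 CPM in batch 1 (log2 fold change -2.10, SE 0.14, adjusted p = 2.91e-07). Adamts14, a procollagen-trimming protease, fell (log2 fold change -2.07, SE 0.09, adjusted p = 1.47e-12), whereas Plod1, a lysyl hydroxylase of collagen, rose (log2 fold change 1.55, SE 0.09, adjusted p = 8.76e-11). Of 14 tested matrix proteases and inhibitors, 7 fell and 3 rose with 0.1 mM adenosine and 8 fell and 3 rose with AMP, and in batch 1 it was 4 and 2 of 16. With 0.1 mM adenosine Timp3, a protease inhibitor bound to the matrix, rose (log2 fold change 2.01, SE 0.12, adjusted p = 4.68e-11), and Mmp15 and Adamts1 fell (-1.90 and -1.16). In batch 1 Adamts1 was not called (-0.19, adjusted p = 0.553).

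Other matrix glycoproteins showed 12 lower and 3 higher of 19 with 0.1 mM adenosine (34.6% and 35% of all genes), 9 and 4 with AMP (31.9% and 33.8%), and 9 and 4 of 24 in batch 1 (19.7% and 19.8%). Fndc1 and Emilin1 fell (-3.83 and -2.19, adjusted p = 1.45e-05 and 3.88e-07) and Ecm1 rose from 10.8 ± 1.59 to 72.4 ± 10.2 CPM (log2 fold change 2.74, SE 0.13, adjusted p = 2.57e-12). Of 8 other laminin chains and basement membrane genes, 5 fell and 2 rose with 0.1 mM adenosine and 4 fell and 3 rose with AMP, and in batch 1 it was 4 and 1 of 11. They included Npnt, for the integrin ligand nephronectin (log2 fold change -2.95, SE 0.48, adjusted p = 0.00138), Ntn1, for netrin-1 (log2 fold change -1.68, SE 0.16, adjusted p = 2.23e-08), and Agrn, for agrin, which clusters receptors at the nerve-muscle junction (log2 fold change -0.61, SE 0.14, adjusted p = 5.96e-04). Of 6 tested other collagens, 3 fell and 2 rose in both batch 2 comparisons with DMSO, and 4 of 11 fell and none rose in batch 1 by edgeR. Col19a1 fell from 36.4 ± 1.86 to 10.1 ± 1.05 CPM with 0.1 mM adenosine (log2 fold change -1.84, SE 0.16, adjusted p = 7.82e-09).

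Of the 18 ligands, receptors and SMADs of the TGF-beta pathway, a known inducer of matrix genes, 7 rose and 6 fell with 0.1 mM adenosine, 9 rose and 2 fell with AMP, and 4 rose and 4 fell in batch 1. The adenosine counts lay near the shares of all genes, 35% higher and 34.6% lower at 0.1 mM and 19.8% and 19.7% in batch 1, and those shares were 33.8% and 31.9% with AMP. Smad7, which inhibits the pathway, rose with 0.1 mM adenosine (log2 fold change 2.18, SE 0.17, adjusted p = 1.66e-09) and with AMP (log2 fold change 2.18, SE 0.17, adjusted p = 2.62e-09), and was not called in batch 1 (log2 fold change 0.44, SE 0.19, adjusted p = 0.0843). Ski, a repressor of SMAD targets, rose with 0.1 mM adenosine as well (log2 fold change 0.92, SE 0.10, adjusted p = 1.50e-07), and was not called in batch 1 (log2 fold change 0.18, adjusted p = 0.347). Tgfb2, a ligand, fell with 0.1 mM adenosine (log2 fold change -1.08, SE 0.14, adjusted p = 1.39e-06) and stood at -0.08 with AMP (adjusted p = 0.589). The difference between AMP and adenosine for Tgfb2 was 0.99 (adjusted p = 1.86e-04). In batch 1 Tgfb2 was not called (log2 fold change -0.29, adjusted p = 0.284).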

How the data were processed

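RNA from 15 libraries of cultured mouse satellite cells was analysed. Per the submitters' processing notes, the authors used Trim Galore, STAR, featureCounts from Subread and DESeq2 with the mm10 genome. Per the file header, the deposited counts of batch 1 came from featureCounts 1.6.4, paired-end, with exons summed by gene and no strand option. The settings for the counts of batch 2 were not found in the labels or headers, and its deposited count table holds no gene with a total under 101. Of the 41 genes, 10 were not analysed in batch 2. Its 43 rows without a gene name (0.0589% of counts) were left out. The deposited FPKM values were made by the authors per gene length and library depth, separately for each batch. The authors' deposited table for batch 1 also gives log2 ratios of DMSO over adenosine and adjusted p-values. The summed exon lengths deposited with the batch 1 counts are per the file header.

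Counts were tested with edgeR 4.0.16 in R 4.3.3: TMM scaling, filterByExpr by group, robust quasi-likelihood fit with group as the only factor, and Benjamini-Hochberg adjustment over all genes tested, with a threshold of 0.05. The 3 groups of batch 2 were fitted together. The batch difference was a treatment by batch interaction over 12 libraries and 13037 genes present in both tables. The standard error of a fold change was its size divided by the square root of the F statistic. The procedure was tested on simulated data. Replicates differed by 3.54 to 34.4 times counting noise (chi-square per degree of freedom), so no pair agreed within counting noise. Alternatives were DESeq2 1.42.0, its size factors, library totals, other filters, limma 3.58.1 (trend, on log2(FPKM + 1)), a replicate block and leaving out each library.

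The members, the lists and the rules were chosen with earlier results of these data known. Values in every library are given for the 2 genes of each role highest by FPKM in batch 1 DMSO, those called between AMP and adenosine, those with the 2 largest rises and falls in each comparison and those called between batches, 21 in all, and for Col1a1, which was added after its values were seen. From each further list up to 3 genes are named, those with the largest change with 0.1 mM adenosine and a mean of at least 10 CPM in batch 2. Promoter windows were read from RefSeq for GRCm38.p6, and exon bases inside them from the GENCODE annotation. Exon bases shared between genes were found from the exon coordinates deposited with the batch 1 counts.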

Additional observations from a re-analysis of the deposited data

Results flagged for a closer look

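For 3 of the 31 genes tested in both batches, the response to adenosine differed between the batches by a test of the difference itself, the treatment by batch interaction of edgeR's quasi-likelihood test. That is 1 higher and 2 lower, near the 5.34% and 5.02% of all genes. For Col18a1 the difference was 1.45 log2 units (adjusted p = 0.00161): the gene was at -0.11 in batch 1 and 1.34 in batch 2, where every adenosine library was above every DMSO library. For Nid1 it was -1.55 (adjusted p = 0.00318), from -0.26 in batch 1 to -1.82 in batch 2. For Lox it was -1.05 (adjusted p = 0.0288), from 0.72 to -0.33, both called against DMSO. The Lox difference was lost without any 1 of the 6 batch 2 libraries (adjusted p = 0.0504 to 0.0783) and with library totals (0.0568), and its call in each batch was lost without 1 library, adenosine replicate 1 or 2 of batch 1 and DMSO replicate 2 of batch 2. The dose doubled from 0.05 to 0.1 mM between the same batches, so dose and batch cannot be told apart.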

How the results depend on the processing

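No result changed direction past its threshold in the alternatives run. Scaled to library totals without TMM factors, the matrix genes called higher numbered 4 in batch 1 and 9 with 0.1 mM adenosine, the medians were -0.12, -0.36 and 0.00587 in the 3 comparisons with DMSO, and for the batch difference 1 gene was lower and the median was 0.17. Under that scaling 4048 of all genes were higher and 1961 lower in batch 1, 6333 and 2894 with 0.1 mM adenosine and 6029 and 2594 with AMP, against 2737 and 2727, 4566 and 4524, and 4412 and 4163 with TMM factors. With limma-trend on log2(FPKM + 1) the median was -0.39 with 0.1 mM adenosine and 0.26 for AMP over adenosine. The causes were not tested. Leaving out 1 library at a time, the matrix genes called higher ranged from 1 to 3 in batch 1, 4 to 6 with 0.1 mM adenosine, 5 to 7 with AMP, 4 to 11 for AMP over adenosine and 1 to 2 for the batch difference. Those called lower ranged from 13 to 15, 17 to 19, 11 to 17, 0 to 0 and 1 to 3. The medians ranged from -0.40 to -0.23, -0.83 to -0.58, -0.39 to -0.14, 0.27 to 0.49 and -0.11 to 0.14. The lowest AMP over adenosine count, 4, came without adenosine replicate 3 and the highest, 11, without AMP replicate 3. Over all genes, 435 to 1045 were called for AMP over adenosine and 683 to 1907 for the batch difference.

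Libraries with the same replicate number did not deviate together throughout, with correlations of -0.0261 to 0.0876 in batch 1 and -0.073 to 0.3 in batch 2, where 6 of 9 libraries correlated best with one of their own number. The median correlation in batch 2 was 0.106 for the 9 pairs of the same number and -0.0686 for the 18 pairs of different numbers. Of these pairs, 5 and 2 were over 0.1. In batch 1 the medians were 0.0545 and -0.0264. The labels give no shared source, so the samples were not treated as paired in the main test. Whether replicate numbers mark a shared source was not tested. With a replicate block, 14 matrix genes were called higher for AMP over adenosine in place of 7, the further ones being Col3a1, Col5a2, Hspg2, Fbn1, Bgn, Tnc and Sparc (adjusted p = 0.000511, 0.00805, 0.0015, 0.0337, 1.89e-05, 0.000484 and 0.00137), 2 were higher for the batch difference in place of 1, and 5018, 9254, 8745, 1204 and 1183 genes were called in the 5 comparisons. Genes at a few CPM, such as Dcn, are limited by depth.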
